A study of Homo sapiens with 6 samples.

Results

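The genes described here are 35 members of the unfolded protein response and the integrated stress response, listed by gene name and found on the array through its annotation. The list held 14 endoplasmic reticulum (ER) chaperones and folding factors, 6 genes of ER-associated degradation (ERAD), 3 stress sensors and 12 genes of the ATF4 arm. The array held 76 probe sets, the groups of short probes that each read 1 transcript, whose annotation named a member, out of 54675. Of these, 72 named a member alone and gave values for 34 of the 35 genes, out of 19775 genes measured. SYVN1 was named only together with another gene and is given apart.

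RNA came from NTERA2/D1, a human cell line of a testicular teratocarcinoma whose cells resemble pluripotent embryonal carcinoma. Cells were transfected 24 h after plating with siRNA against VAMP7 (knockdown, 3 arrays) or with a nonspecific scrambled siRNA (control, 3 arrays), and RNA was taken after 72 h. No other treatment separated the groups, and no inducer of ER stress is named in the labels, so both groups show these genes in cells that were transfected and otherwise unstressed as far as the labels say. The sample titles call the 3 arrays of each group biological replicates, though they do not say how these were made (separate cultures or transfections). The descriptions of the 3 knockdown arrays all say replicate 1, and the numbers used here are those of the titles. All arrays come from 1 line, and the p-values cover the variation among these 6 arrays.

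The unfolded protein response senses misfolded protein in the ER lumen. The sensors IRE1 (ERN1), PERK (EIF2AK3) and ATF6 are held inactive while the chaperone BiP (HSPA5) binds them, and their release turns on chaperones, folding enzymes and the ERAD machinery that returns failed proteins to the cytosol. PERK, like the kinases that sense amino acid shortage, viral RNA and haem deficiency, phosphorylates the initiation factor eIF2, which slows translation and favours ATF4, the transcription factor of the integrated stress response. VAMP7 is a SNARE of late endosomes and lysosomes and takes part in vesicle fusion after the ER and Golgi stages of secretion.

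Short DNA elements link these arms to their regulators, and the promoters of 5 members are shown because they carry those elements. In each, 250 bases before and 50 after the transcription start are given 5′ to 3′ as RefSeq has them on GRCh38.p14, with matches in capitals. The elements searched, on both strands, were the ER stress element ERSE, made of CCAAT and CCACG with a fixed gap between them, the related ERSE-II, in which ATTGG and CCACG lie close together, and the core of the C/EBP-ATF composite element bound by ATF4 (TGATGNAA). HSPA5 lies at chr9:125241294-125241593, minus strand, SDF2L1 at chr22:21642052-21642351, plus strand, HERPUD1 at chr16:56931892-56932191, plus strand, CHAC1 at chr15:40953221-40953520, plus strand, and ASNS at chr7:97872359-97872658, minus strand.
HSPA5: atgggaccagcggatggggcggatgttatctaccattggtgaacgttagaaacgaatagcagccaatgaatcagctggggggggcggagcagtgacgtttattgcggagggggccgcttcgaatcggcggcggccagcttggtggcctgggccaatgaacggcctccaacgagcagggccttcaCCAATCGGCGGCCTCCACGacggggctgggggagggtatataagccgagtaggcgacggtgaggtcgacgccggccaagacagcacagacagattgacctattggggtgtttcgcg
SDF2L1: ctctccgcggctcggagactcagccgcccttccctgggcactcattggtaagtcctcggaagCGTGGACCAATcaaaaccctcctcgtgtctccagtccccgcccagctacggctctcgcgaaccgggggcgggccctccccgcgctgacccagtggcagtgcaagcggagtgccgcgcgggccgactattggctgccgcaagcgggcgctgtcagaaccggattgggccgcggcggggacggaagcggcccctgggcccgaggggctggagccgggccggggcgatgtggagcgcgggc
HERPUD1: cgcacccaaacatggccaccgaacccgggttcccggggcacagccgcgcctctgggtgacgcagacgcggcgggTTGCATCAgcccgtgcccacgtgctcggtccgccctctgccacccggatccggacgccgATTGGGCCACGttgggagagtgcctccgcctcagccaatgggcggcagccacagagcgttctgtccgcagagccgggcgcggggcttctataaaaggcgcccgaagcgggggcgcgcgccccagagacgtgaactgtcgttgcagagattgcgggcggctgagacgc
CHAC1: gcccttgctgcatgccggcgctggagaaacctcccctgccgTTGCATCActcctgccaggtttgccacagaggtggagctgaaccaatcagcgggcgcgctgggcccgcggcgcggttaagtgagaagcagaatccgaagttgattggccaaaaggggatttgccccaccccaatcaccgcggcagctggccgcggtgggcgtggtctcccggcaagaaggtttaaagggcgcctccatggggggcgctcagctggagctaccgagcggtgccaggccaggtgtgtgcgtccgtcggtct
ASNS: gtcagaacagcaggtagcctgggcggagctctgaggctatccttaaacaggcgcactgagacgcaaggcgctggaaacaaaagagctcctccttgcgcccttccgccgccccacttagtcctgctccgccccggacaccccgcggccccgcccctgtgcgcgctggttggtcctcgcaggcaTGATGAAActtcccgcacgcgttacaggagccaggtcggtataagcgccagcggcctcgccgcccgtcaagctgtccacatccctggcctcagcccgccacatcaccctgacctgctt

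The capitals mark an ERSE in HSPA5, an ERSE-II in SDF2L1, an ERSE-II and an ATF4 composite core in HERPUD1, and a composite core in CHAC1 and in ASNS. Promoters were at hand for 33 of the 35 members. An ERSE match stood in 5 of 13 chaperone promoters (HSPA5, HSP90B1, CALR, CANX and CRELD2) and in none of the other 20 promoters, against 22 of 27305 promoters searched (0.0806%). An ERSE-II match stood in 3 (HYOU1, SDF2L1 and HERPUD1), against 0.0549% of all promoters. The composite core stood in 3 members (HERPUD1, CHAC1 and ASNS), against 3.67% of all promoters. The elements searched were picked as those already known to link these arms to their regulators. Matches among the members were therefore likely beforehand, and the shares beside all promoters do not test enrichment. A match is a description of the sequence, and a window without one says only that these letters are not in it.

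VAMP7 itself read 136.8, 175.4 and 148.6 intensity units in knockdown, against 2487, 2617 and 2741 in control. The signal left was 5.87% of control, with a log2 fold change of -3.71 (adjusted p = 8.96e-05 in limma), and this was the 1 gene of 19775 called at an adjusted p under 0.05 (0.00506%). In bulk RNA of this kind, fewer cells carrying a transcript and less of it per cell cannot be told apart. The 8 measured markers of embryonal carcinoma cells, NANOG, SOX2 and LIN28A among them, all read at or above the median gene, and the 4 measured leukocyte markers all read below it. NANOG, a transcription factor of pluripotency, read 3629, 4283 and 3993 in knockdown, against 5151, 4314 and 5053 in control, without overlap (-0.28, 95% interval -0.55 to -0.01, adjusted p = 0.74 in limma). The groups of the other 7 overlapped, so 12.5% of these markers did not overlap, beside 13.0% of all genes. Of the 8 markers 4 lay above 0 and 4 below, with SOX2 highest at 0.22. Of fibroblast markers 2 of 6 and of neural markers 4 of 5 were at or above the median gene. The fibroblast marker LUM (-0.32) and the neural marker NEFL (-0.17) were lower in knockdown without overlap. Of the 6 fibroblast markers 2 lay above 0, and of the 5 neural markers 2. The part of these markers in the results below was not tested. Knockdown replicate 1 had the lowest mean correlation with the other arrays (0.9878, where the 5 remaining arrays had 0.99 to 0.991).

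None of the 34 measured members passed the adjusted threshold in either direction (smallest adjusted p = 0.726, limma with Benjamini-Hochberg over all genes). Log2 fold changes, of intensity plus an offset of 50, ran from -0.27 for CHAC1 to 0.28 for CALR, with a median of 0.05, against 0.003 over all genes. At an unadjusted p under 0.05 there was 1 member higher (EIF2AK3) and 1 lower (CHAC1), 2 of 34, beside 6.66% of all genes (3.63% higher and 3.03% lower). The members' median standard error was 0.11, beside 0.135 over all genes. The 95% interval lay within a 1.5-fold change either way for 32 of 34 members and within a 2-fold change for all 34 measured. The members that reached past 1.5-fold were CALR (-0.05 to 0.60) and ERN1 (-0.33 to 0.59). Over all 19775 genes the interval lay within 1.5-fold for 13899 and within 2-fold for 19136, so the 2-fold bound held for most genes of any kind.

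Values above 0 were found for 25 of the 34 members (73.5%), against 50.8% of all genes. This count depended on the scaling of the arrays: with each array centred on its median gene it was 18 of 34, where 42.1% of all genes lay above 0. The 3 knockdown arrays did not overlap the 3 control arrays for 8 members, 5 higher and 3 lower (23.5%), against 13.0% of all genes (6.68% higher and 6.29% lower) and 15.4% of genes at or above the median gene. The higher ones were HSP90B1, SDF2L1, CRELD2, SEL1L and EIF2AK3, and the lower ones DERL2, CHAC1 and VLDLR. On brighter HSP90B1 probe sets that also name a microRNA the groups did overlap.

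**Figure D1:**
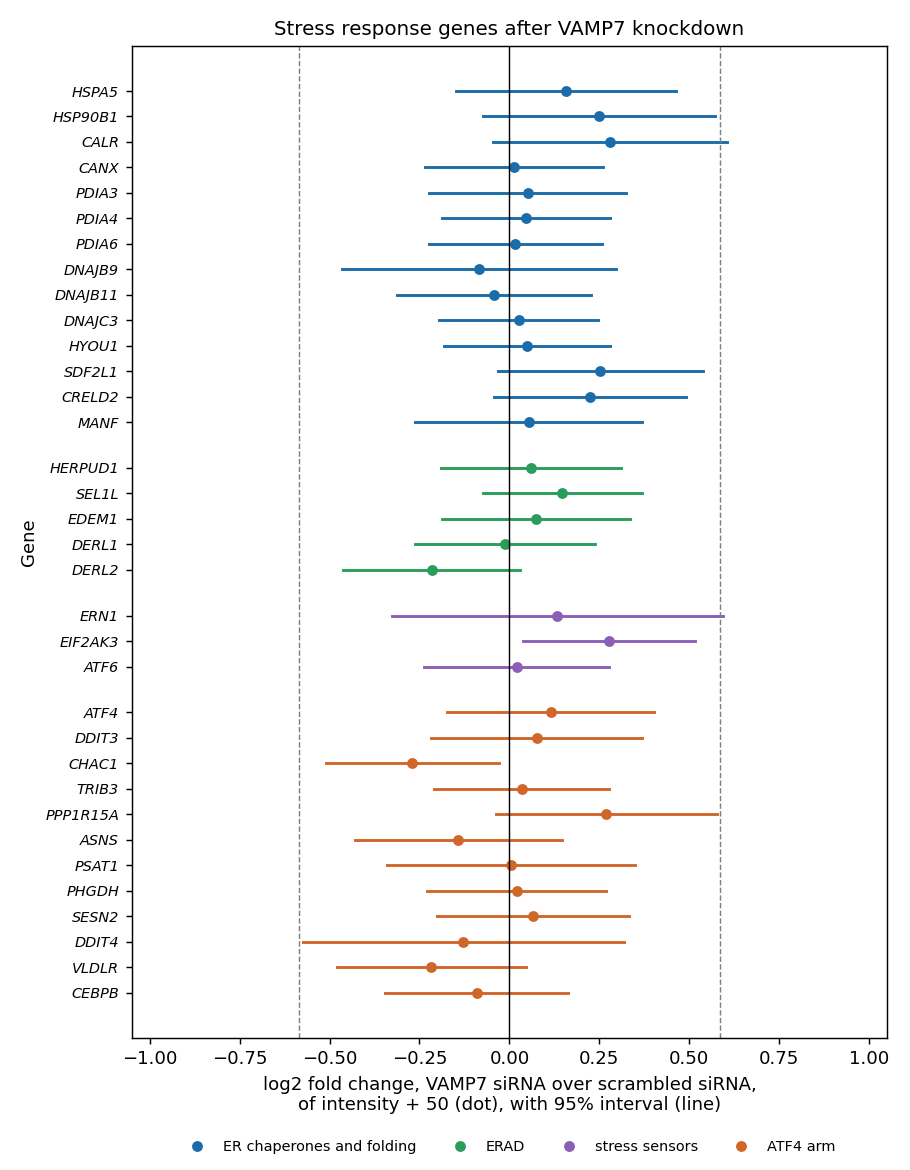
Log2 fold change of each measured member (x axis, VAMP7 siRNA over scrambled siRNA, of intensity + 50), as a dot with its 95% interval, coloured by arm; n = 3 arrays a group. Dashed lines mark a 1.5-fold change either way, and only the intervals of CALR and ERN1 cross one; those of EIF2AK3 and CHAC1 alone leave out 0.

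Among the chaperones, 12 of 14 measured members lay above 0, against 50.8% of all genes, and none was called (median 0.05). With each array centred on its median gene, CANX, DNAJC3 and PDIA6 also lay below 0. HSPA5, the BiP chaperone of the Hsp70 family, read 25428, 22862 and 22722 in knockdown, against 19454, 25040 and 19555 in control. Its groups overlapped because control replicate 2 lay above 2 of the 3 knockdown arrays (log2 fold change 0.16, SE 0.13, adjusted p = 0.856, or 0.28 without that array). A second HSPA5 probe set gave 0.08. HSP90B1, the ER form of Hsp90 also called GRP94, read 6477, 6607 and 6219 in knockdown, against 5726, 6182 and 4468 in control. The groups were parted by a narrow margin, and control replicate 3 was the low one (0.25, SE 0.14, adjusted p = 0.796). Without control replicate 3 the value was 0.11, and over all single arrays left out it ran from 0.11 to 0.34. The 3 other HSP90B1 probe sets, 2 of which also name the microRNA MIR3652, gave 0.32, 0.25 and 0.09. Those 2 were brighter than the one used, and on both the groups overlapped. The brightest, at 0.09, averaged 26470 in knockdown and 24888 in control, and was not used because it names 2 genes.

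Calreticulin (CALR), a lectin chaperone of the ER lumen that holds glycoproteins while they fold, read 6597, 8195 and 6728 in knockdown, against 5216, 5777 and 6721 in control. Control replicate 3 lay above knockdown replicate 1, so the groups overlapped (0.28, SE 0.14, adjusted p = 0.775, or 0.18 without knockdown replicate 2). Its other probe sets gave 0.11 and 0.03. Its membrane-bound partner calnexin (CANX) was at 0.01 on the probe set used, with knockdown at 12371, 10662 and 11312 and control at 10560, 12067 and 11393. Another CANX probe set did not overlap between groups, at 3193, 3628 and 3719 in knockdown and 3010, 3050 and 2743 in control (0.25, SE 0.11, adjusted p = 0.759 over all probe sets). Of its other 3, a dim one of mean intensity 32.5 gave 0.54, and the rest gave 0.04 and 0.01.

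SDF2L1, a cofactor of BiP that is a known target of ATF6 and XBP1, read 845.9, 668.9 and 664.8 in knockdown, against 633.5, 581.3 and 580.3 in control. All 3 knockdown arrays were higher, and replicate 1 set much of the distance (0.25, SE 0.12, adjusted p = 0.763, or 0.15 without it). CRELD2, a secreted ER stress protein with disulphide isomerase activity, read 1889, 1683 and 1553 in knockdown, against 1492, 1540 and 1331 in control. Here too the groups did not overlap, with knockdown replicate 3 close above control replicate 2 (0.22, SE 0.11, adjusted p = 0.777).

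The protein disulphide isomerases, which form and reshuffle disulphide bonds, lay between 0.02 and 0.05 on the probe sets used. PDIA3, the partner of calreticulin and calnexin, averaged 12399 ± 805 in knockdown and 12003 ± 1368 in control (SD, n = 3 each; 0.05). A dimmer PDIA3 probe set did not overlap between groups, at 1029, 1067 and 966.8 in knockdown and 962.2, 890.3 and 859.5 in control (0.17, adjusted p = 0.82 over all probe sets), and the third gave 0.11. PDIA4 was at 0.05 and PDIA6 at 0.02, and the 4 PDIA6 probe sets ran from 0.02 to 0.08. HYOU1, the large Hsp70-like chaperone GRP170 that exchanges nucleotide on BiP, was at 0.05, and MANF, a secreted ER protein with cell-protective effects, also at 0.05.

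The J-domain partners of BiP lay on both sides of 0. DNAJB9 (ERdj4), which delivers BiP to IRE1, read 1548, 2136 and 1917 in knockdown, against 2173, 2123 and 1646 in control (-0.08, SE 0.16). Knockdown replicate 1 was the lowest of the 6, and without it the value was 0.04. A dimmer DNAJB9 probe set did not overlap between groups, at 454.9, 652.0 and 562.4 in knockdown and 827.2, 696.6 and 689.8 in control (-0.39, SE 0.15, adjusted p = 0.748 over all probe sets). On that probe set too, and on the third (427.6 in knockdown replicate 1, -0.34), the lowest array was knockdown replicate 1. DNAJB11 (ERdj3), a secreted co-chaperone, was at -0.04 and DNAJC3, the p58IPK protein, at 0.03. Among the 3 other DNAJC3 probe sets, all of mean intensity under that of the one used, values ran from -0.31 to 0.44.

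**Figure D2:**
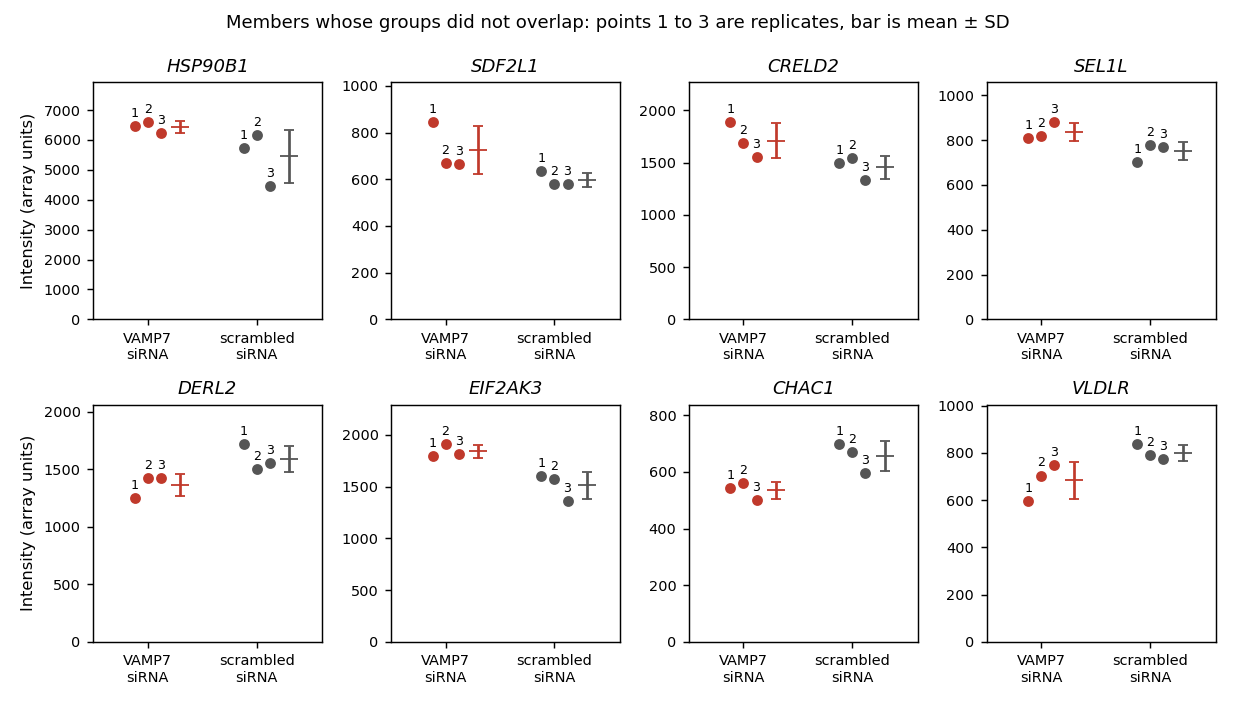
Intensity (y axis, array units from 0) of the 8 members whose 3 knockdown arrays (VAMP7 siRNA, left, red) did not overlap the 3 control arrays (scrambled siRNA, right, grey). Points carry the replicate number and bars show mean ± SD; the distance between groups is small beside the level, 1.22-fold for EIF2AK3, and none passed the adjusted threshold.

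ERAD genes were split, with 3 of 5 measured members above 0 and none called (median 0.06). HERPUD1, a membrane scaffold of the degradation complex, read 5315, 5806 and 5633 in knockdown, against 5113, 5959 and 5025 in control. The groups overlapped through control replicate 2 alone, the highest of the 6 arrays (0.06, SE 0.11, adjusted p = 0.934). SEL1L, the adaptor that feeds substrates to the HRD1 ligase, read 808.3, 817.7 and 882.0 in knockdown, against 703.9, 779.0 and 768.3 in control (0.15, SE 0.09, adjusted p = 0.818). Its groups did not overlap, but its 3 dimmer probe sets gave 0.05, -0.25 and 0.28.

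DERL2, one of the derlins that help move proteins out of the ER, read 1249, 1421 and 1420 in knockdown, against 1717, 1500 and 1558 in control. All 3 knockdown arrays were lower (-0.22, SE 0.10, adjusted p = 0.77), whereas a second DERL2 probe set of mean intensity 582.5 gave 0.15. DERL1 was at -0.01, with other probe sets at -0.17, -0.18 and 0.28. EDEM1, which trims mannose from failed glycoproteins, was at 0.07. The HRD1 ligase SYVN1 shares its probe set with the microRNA MIR6751, so its value cannot be given to the gene alone: that probe set read 517.5, 701.3 and 576.7 in knockdown, against 536.6, 821.6 and 653.1 in control (difference -0.14).

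Of the sensors, EIF2AK3 had the smallest p of the 34 members. The kinase read 1798, 1910 and 1817 in knockdown, against 1602, 1578 and 1364 in control. The 3 knockdown arrays were all higher and lay close together, so the mean of 1841 ± 60.1 was 1.22-fold the control mean of 1515 ± 131 (SD, n = 3 each). On the log2 scale this was 0.28 (SE 0.10, adjusted p = 0.726 in limma) with a 95% interval of 0.04 to 0.52, from 0.21 to 0.32 when any 1 array was left out. The interval's distance from 0 was not kept throughout: the unadjusted p was under 0.05 in 8 of the 14 alternatives fitted per gene, but not with median centring, the replicate block, averaged probe sets, or without knockdown replicate 2, knockdown replicate 3 or control replicate 3. Its other probe set read near background, at a mean of 3.41, and gave -0.06, and the mean of both probe sets gave 0.11.

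ERN1 was dim, below the median gene, at 217.9, 131.8 and 117.6 in knockdown and 121.2, 161.7 and 120.6 in control. Knockdown replicate 1 was the high array, and the value of 0.13 (SE 0.19) turned to -0.07 without it. Other, dimmer ERN1 probe sets gave 0.26 and 0.07, and on each of them knockdown replicate 1 was the lowest knockdown array. ATF6, cleaved in the Golgi to release its transcription factor domain, was at 0.02 (SE 0.11), and its 3 other probe sets ran from -0.12 to 0.09.

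The ATF4 arm was centred on 0, with 7 of 12 measured members above it, none called and a median of 0.01. ATF4 read 22682, 20822 and 20960 in knockdown, against 18021, 23104 and 18735 in control, so the groups overlapped through control replicate 2 (0.11, SE 0.12, adjusted p = 0.885). ATF4 is governed mostly through translation of its mRNA, which an array does not read. DDIT3 (CHOP), the transcription factor linked to death under lasting ER stress, read 2625, 3299 and 2897 in knockdown, against 2494, 2987 and 2868 in control. The 2 groups covered much the same range (0.08, SE 0.12). TRIB3, a pseudokinase that damps ATF4 and AKT signalling, was at 0.03, and its dimmer second probe set gave 0.16 (SE 0.24).

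CHAC1, an enzyme that degrades glutathione and is a known target of ATF4, read 542.4, 561.0 and 500.2 in knockdown, against 697.9, 672.2 and 596.1 in control. Each knockdown array lay below each control array, and the mean of 534.5 ± 31.1 was 0.816 of the control mean of 655.4 ± 53.0 (SD, n = 3 each). On the log2 scale this was -0.27 (SE 0.10, adjusted p = 0.727 in limma) with a 95% interval of -0.51 to -0.03, from -0.33 to -0.23 when any 1 array was left out. The unadjusted p was under 0.05 in 11 of the 14 alternatives, but not without knockdown replicate 3, control replicate 1 or control replicate 2. No second probe set named CHAC1.

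PPP1R15A (GADD34), the phosphatase subunit that reverses eIF2 phosphorylation, stood on the other side of 0 from CHAC1. It read 340.8, 277.7 and 259.7 in knockdown, against 220.7, 268.0 and 212.9 in control, with overlap only between knockdown replicate 3 and control replicate 2 (0.27, SE 0.13, adjusted p = 0.772, or 0.17 without knockdown replicate 1). A dimmer second probe set gave -0.06. VLDLR, a lipoprotein receptor that ATF4 can induce, read 596.4, 704.1 and 750.3 in knockdown, against 836.6, 789.3 and 773.8 in control. Its groups did not overlap, and knockdown replicate 1 was farthest from control (-0.22, SE 0.11, adjusted p = 0.784, or -0.13 without it).

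The amino acid synthesis genes of the arm lay near 0 or slightly below. Asparagine synthetase (ASNS) read 9362, 11159 and 10554 in knockdown, against 10327, 12811 and 11220 in control (-0.14, SE 0.12, adjusted p = 0.858). A second ASNS probe set read near background, at a mean of 4.38, and gave 0.01. PSAT1 and PHGDH, both of serine synthesis, were at 0.005 and 0.02. On the probe set used, PSAT1 ran from 18581 to 27040 in control alone and only from 22357 to 23013 in knockdown. Its second probe set gave -0.02, and a PHGDH probe set that also names MZT2A and MZT2B gave -0.06. SESN2, a leucine sensor that restrains mTORC1, was at 0.07, and its second probe set, of mean intensity 462.7, at -0.05. CEBPB, a partner of ATF4, was at -0.09. DDIT4 (REDD1), another inhibitor of mTORC1, read 1098, 1807 and 1691 in knockdown, against 1695, 1702 and 1533 in control. Its low array was knockdown replicate 1, without which its -0.13 (SE 0.19) turned to 0.09.

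Across arrays, the arms did not line up with the groups. For each gene the deviation of an array from its mean over the 6 arrays was taken on the log2 scale, and the median was found for each arm. The chaperones stood at 0.05, 0.04 and 0.01 on knockdown replicates 1 to 3 and at -0.08, 0.08 and -0.10 on control replicates 1 to 3. Control replicate 2 was thus the highest of all 6 for this arm, and the other control arrays were the lowest. The ATF4 arm stood at -0.10, 0.03 and -0.01 in knockdown and at -0.09, 0.10 and 0.01 in control, again highest on control replicate 2. All genes together stayed between -0.01 and 0.02 on every array.

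The medians of the arms moved accordingly with single arrays. Without control replicate 2 the chaperone median was 0.13 and the ERAD median 0.13, against 0.05 and 0.06 with it. Without control replicate 1 the ATF4 arm median was -0.07. The median of the 3 sensors was 0.13 and turned to -0.04 without knockdown replicate 1. Knockdown replicate 1 was the highest array for 9 of the 34 members and the lowest for 7, where all genes had 26.7% and 20.4%. Knockdown replicate 2 was the highest for 8 and the lowest for 0 (all genes 13.5% and 16.7%), and knockdown replicate 3 the highest for 2 and the lowest for 3 (12.3% and 13.3%). Control replicate 1 was the highest for 6 and the lowest for 12 (15.3% and 14.9%), control replicate 2 the highest for 9 and the lowest for 2 (15.8% and 17.7%), and control replicate 3 the highest for 0 and the lowest for 10 (16.4% and 17.1%). What set these arrays apart was not tested.

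**Figure D3:**
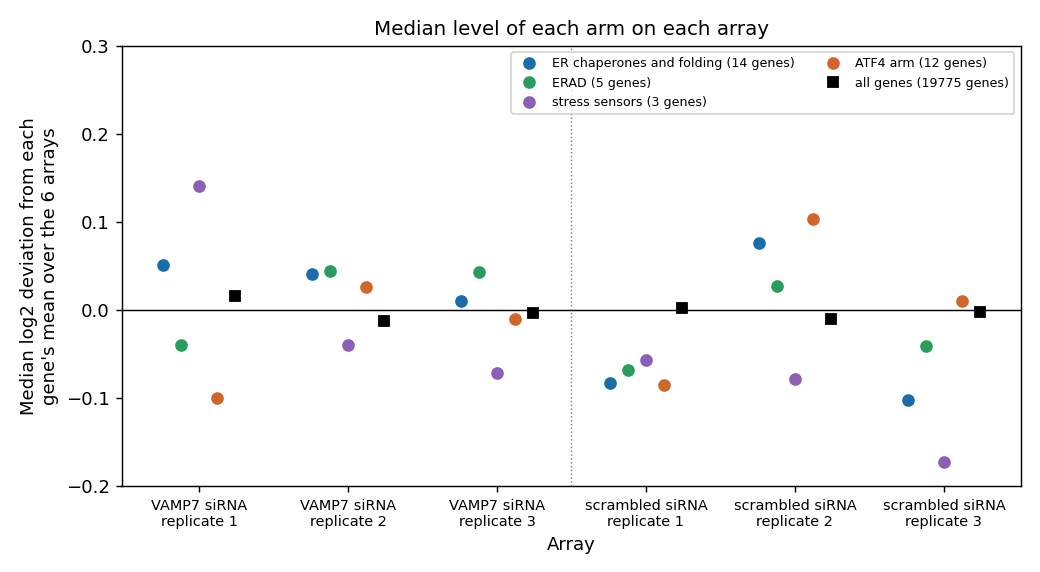
Median log2 deviation (y axis) of the genes of each arm (coloured circles) and of all genes (black squares) from each gene's mean over the 6 arrays (x axis), with knockdown left and control right of the dotted line. The chaperones and the ATF4 arm are highest on control replicate 2 (0.08 and 0.10), and the sensors are highest on knockdown replicate 1 (0.14).

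The many probe sets per gene gave a second reading of the same RNA. Of 72 probe sets that named a member alone, 51 lay above 0, beside 52.8% of the 41091 probe sets fitted, and none was called (smallest adjusted p = 0.671), beside 0.00243% of all probe sets. At an unadjusted p under 0.05 there were 3 higher and 3 lower, beside 6.60% of all probe sets in both directions (3.91% higher and 2.69% lower). The higher were a dim one of CANX, one of DNAJC3 and that of EIF2AK3, and the lower were that of CHAC1, one of DNAJB9 and a dim one of DNAJC3. Several probe sets were available for 21 members, and their signs differed within 11 of them. Among probe sets whose mean log2 value was at or above that of 100 units, 16 members had several and the signs agreed in 12.

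**Figure D4:**
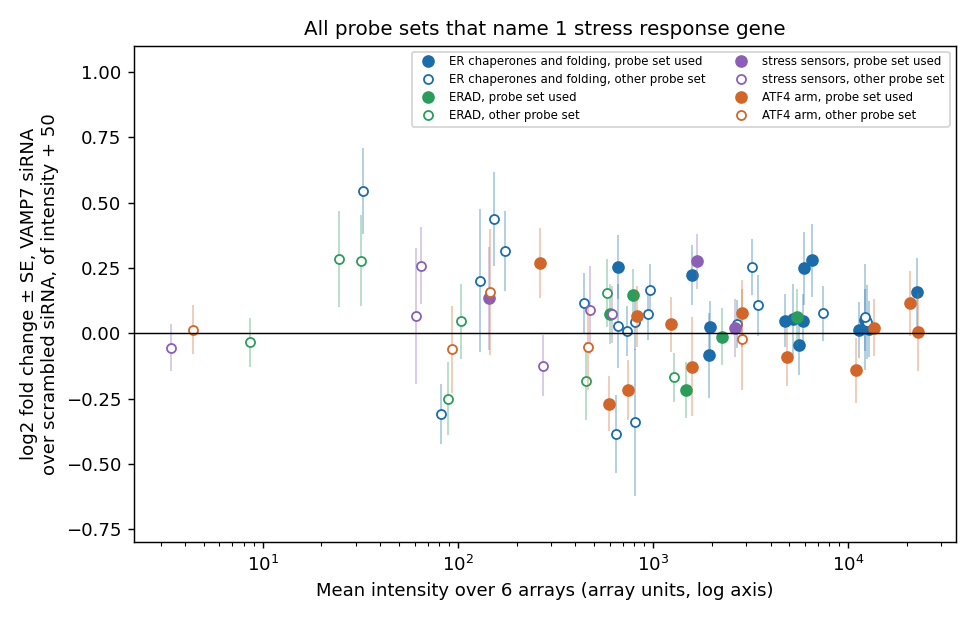
Log2 fold change ± SE (y axis) of the 72 probe sets that name 1 member, against their mean intensity over the 6 arrays (x axis, log axis). Filled circles are the probe set used for its gene and open circles the others. Some dim probe sets lie far from 0, as that of CANX at 0.54 (mean intensity 32.5). The dimmest lie close to it: EIF2AK3 at -0.06 (mean 3.41), ASNS at 0.01 (4.38) and HERPUD1 at -0.04 (8.56), where the offset understates change most.

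Set beside the promoter elements shown above, the 5 chaperones with an ERSE match ran from 0.01 (CANX) to 0.28 (CALR), with a median of 0.22. The 8 other chaperones with a promoter at hand ran from -0.08 to 0.25 (DNAJB9 and SDF2L1), with a median of 0.04, so the ranges overlapped. This grouping was made after the values had been seen and was not tested. The median of the 5 lay between 0.11 and 0.27 when any 1 array was left out, that of the 8 between 0.02 and 0.06. These ranges reuse the arrays whose values had been seen, so they cannot test the grouping. The 8 also include SDF2L1 and HYOU1, which hold an ERSE-II match. The 3 members with an ERSE-II match were at 0.05, 0.25 and 0.06 (HYOU1, SDF2L1 and HERPUD1). Of those with the composite core, HERPUD1 was at 0.06, ASNS at -0.14 and CHAC1 at -0.27.

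Of 79 other genes of these pathways, 74 were measured and none was called. At an unadjusted p under 0.05 there were 0 higher and 2 lower, beside 3.63% and 3.03% of all genes. Of the 74, 41 lay above 0 (55.4%), against 50.8% of all genes, and the median log2 fold change of the 74 was 0.01. The groups did not overlap for 7 of the 74 (9.46%), 2 higher and 5 lower, against 13.0% of all genes. Of 17 other folding genes 9 lay above 0, and the 2 of smallest p were UGGT1, the glycoprotein folding sensor, at 0.20 (adjusted p = 0.761) and the oxidase ERO1A at -0.24 (adjusted p = 0.833). UGGT1 read 2916, 2833 and 2681 in knockdown, against 2436, 2330 and 2565 in control, without overlap. ERO1A read 2056, 1466 and 1343 in knockdown, against 1924, 1942 and 1796 in control, so knockdown replicate 1 was the highest of the 6 and the other knockdown arrays the lowest.

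Of 17 other ERAD genes 7 lay above 0. UFD1, which with NPLOC4 brings the VCP segregase to ubiquitylated substrates, read 2824, 2730 and 2760 in knockdown, against 3091, 3393 and 3226 in control. The groups did not overlap (-0.22, SE 0.09, adjusted p = 0.738). Among 20 other sensors and regulators, 11 lay above 0, with ERN2, the gut form of IRE1, at 0.90 (SE 0.46, adjusted p = 0.784) and the ATF6 protease MBTPS1 at 0.16 (adjusted p = 0.813). ERN2 was dim and its groups overlapped, at 147.9, 51.6 and 240.7 in knockdown and 63.5, 6.30 and 90.9 in control. Of 20 other ATF4 targets 14 lay above 0 (median 0.04). FGF21, a stress hormone, had the smallest p among them, at 4.85, 10.7 and 8.54 in knockdown and 17.9, 41.5 and 50.9 in control (-0.56, SE 0.16, adjusted p = 0.637), levels that all lie below the median of every array.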

How the data were processed

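Gene expression was measured on human 3' expression arrays, 3 with VAMP7 siRNA and 3 with scrambled siRNA. The deposited values were linear intensities, scaled by the authors so that each array has a mean of 500.07 after trimming 2% at each end. Per the submitters' processing notes RMA was used, which gives log2 values and does not describe these intensities; background correction is not given in the sources used here, and no detection calls were used. An offset of 50 was added before taking log2, which understates changes of dim genes.

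Names of probe sets came from the platform annotation, with symbols updated to GRCh38.p14: 41091 named 1 gene and 1801 several, which were not used for a gene. The probe set of highest mean stood for its gene, with no filter, giving 19775 genes. They were fitted with limma 3.58.1 (R 4.3.3; lmFit, eBayes, Benjamini-Hochberg over all genes, threshold 0.05). An exact permutation test of 3 against 3 cannot go below 0.1. The number of arrays limits the precision. On data simulated from this comparison (19775 genes, 200 changed), the fit recovered 87% of 2-fold and 99.4% of 4-fold changes. So many planted changes make the adjusted threshold easier to pass than in these data, where 1 gene was called. The simulated noise was independent between genes, without shifts shared by an array. These shares are therefore not the power to call a member here, and changes under 2-fold were not simulated. The members and lists were chosen with earlier results of these data known. All 34 measured members are named, VAMP7, and of each other pathway list those at an unadjusted p under 0.05 or else the 2 of smallest p; the promoters shown come from a rule naming 6 genes, of which TRIB3 held no match and is left out.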

Additional observations from a re-analysis of the deposited data

How the results depend on the processing

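In all 15 alternatives no member was called, the smallest adjusted p lying between 0.505 and 0.836. VAMP7 kept a negative and called log2 fold change, from -3.96 with an offset of 16 to -3.42 with an offset of 100 (-3.79 to -3.65 with any 1 array left out). The count of genes called was 2 with an offset of 16 and 2 when probe sets were averaged per gene, and 1 in the other alternatives. With the replicate number as a block, no call changed. In this balanced design the block cannot move a log2 fold change, so the VAMP7 value of -3.71 and the 25 members above 0 were bound to stay. Deviations of same-numbered arrays correlated between -0.02 and 0.01, so the numbers were not taken as pairs. Members above 0 numbered 20 to 25 when any 1 array was left out, 18 with median centring and 25 with quantile normalization. The number of members at an unadjusted p under 0.05 ranged from 0 of 34 without knockdown replicate 3 (6.43% of all genes) to 6 of 33 among genes at or above the median gene (CALR, CHAC1, DERL2, EIF2AK3, PPP1R15A and SDF2L1, where 8.88% of those genes did).

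Leaving out 1 array moved the chaperone median between 0.031 and 0.13, the ERAD median between 0.016 and 0.13, the sensor median between -0.045 and 0.27 and the ATF4 arm median between -0.067 and 0.050. Of 34 members 19 kept their direction in every alternative fitted once per gene that held them. The fit of all probe sets is not part of that count, and signs differed there within 11 members. The replicate block, the trended and robust eBayes fit and the restriction to brighter genes leave each log2 fold change as it was. They could not turn a direction. The 15 members that did not keep their direction had main values of at most 0.13 in size, and the cause was not tested. With median centring ATF6 was at -0.015, CANX -0.022, DNAJC3 -0.0093, PDIA6 -0.018, PHGDH -0.014, PSAT1 -0.030 and TRIB3 -0.0012, and with its probe sets averaged PSAT1 was at -0.0094. With any 1 array left out, values ran from -0.045 to 0.081 for ATF6, -0.044 to 0.063 for CANX, -0.26 to 0.088 for DDIT4, -0.063 to 0.061 for DERL1, -0.21 to 0.041 for DNAJB9, -0.073 to 0.27 for ERN1, -0.058 to 0.16 for MANF, -0.037 to 0.077 for PHGDH, -0.14 to 0.13 for PSAT1, -0.0078 to 0.12 for SESN2, -0.0090 to 0.15 for DDIT3, -0.026 to 0.063 for DNAJC3, -0.031 to 0.084 for TRIB3, -0.14 to 0.033 for DNAJB11 and -0.054 to 0.069 for PDIA6.

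ERN1, ERN2 and FGF21 lay below the median gene, where the offset understates change. Their standard errors were 0.19, 0.46 and 0.16, against a median of 0.135 over all genes. Each gene kept its probe set except where all probe sets were fitted or averaged.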
